A study of Caenorhabditis elegans with 4 samples.

Results

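Chromosome II carried 1691 of the 10159 peaks of BLMP-1 binding listed for fed L1 larvae of Caenorhabditis elegans. Its members were all peaks of the list placed on chromosome II, chosen by position alone. BLMP-1, a transcription factor with zinc fingers, is the nematode counterpart of PRDM1 (Blimp-1) in vertebrates. It is known for the timing of larval development, for migration of the distal tip cells that shape the gonad, and for the epidermis and its cuticle. Autosomes of C. elegans have no single centromere. Their central part is rich in genes and recombines little, while the arms on either side recombine more and hold more repeats and younger gene families.

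ChIP-seq, the sequencing of DNA that is immunoprecipitated with a chromatin protein, was done on hermaphrodites of strain OP109. They are mutant for unc-119 (ed3) III and carry the transgene wgIs109, which joins blmp-1::TY1::EGFP::FLAG to a copy of unc-119 (+). All libraries thus came from worms with this bombarded transgene, the input libraries included, so the protein recovered was the tagged one. Worms were grown at 20 °C, and 2 ChIP libraries, for which a goat anti-EGFP antibody was used, stood beside 2 libraries of input DNA. The labels give 2% formaldehyde and 100 mM Tris for ChIP and input libraries alike. The stage label reads fed L1, whereas the chromatin protocol in the labels speaks of embryos. The question was which stretches of the genome the tagged factor occupied.

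The values were 1 combined list of peaks on WormBase build WS180, each with a start, an end and the q-value of the peak caller, which is the authors' own. A low q means strong evidence for a peak and also falls with its width. No value of a single library is in the list, so no replicate error is given and nothing below was tested. Sets of peaks are described by counts, medians and ranges, beside the same values of autosomes I, III, IV and V. Neither the genes at these positions nor the sequence under the peaks was analysed here, since no genome or annotation of the build was used.

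A second measure was inferred from the q-values. A q of the list equals a binomial tail for a pair of whole tag counts, ChIP against scaled input, multiplied by 16906 candidate regions and divided by the rank of the peak. This held for 10157 of 10159 peaks within a relative tolerance of 1e-11, and for all 1691 on chromosome II. In the text, tag counts and the ratio of ChIP to input tags are these inferred values for the combined list. How the 2 replicates enter these counts is not known, since the sources used here do not say whether reads were pooled. On chromosome II, the median peak had 296 ChIP tags (range 41 to 4276) and 141 input tags (range 6 to 3478). The median ratio was 2.06, its quartiles were 1.63 and 2.74, and its extremes 1.16 and 11.2.

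In peak density, median width and median ratio chromosome II lay within the range of the other autosomes. Its peaks covered 904.6 kb, or 5.93% of a span of 15.27 Mb, where the others had 848.7 to 902.3 kb and 4.32 to 6.17%. They lay at 111 per Mb against 78.4 to 120 on the other 4 autosomes. The median width was 411 bp, against 400 to 435.5 bp elsewhere. The lower quartile, 311.5 bp, was above the others' 295 to 309.2 bp, and the upper, 610.0 bp, inside their range. A q under 1e-20 was listed for 521 peaks, or 30.8%, where the whole list had 30.6%. The strongest 10% of the list by q, by definition 10% of all peaks, held 168 peaks of chromosome II, or 9.93%. A q under 1e-100 was listed for 61 peaks of chromosome II, or 3.61% against 3% of the whole list, and for 45 to 57 peaks on each of the other autosomes. The median ratio of ChIP to input, 2.06, lay inside the 2.02 to 2.15 of the other autosomes. Its lower quartile, 1.63, was below those of the other 4, the lowest of which was 1.65.

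The peaks of chromosome II lay unevenly along it. The left arm, defined as the part below 0.25 of the span of peaks, held 192 peaks, or 11.4%. The centre, from 0.25 to 0.75, held 1127 peaks, or 66.6%, and the right arm held 372, or 22.0%. Density was 50.3 per Mb in the left arm, 148 in the centre and 97.5 in the right arm. The centre was therefore 2.93 times as dense as the left arm but only 1.51 times as dense as the right arm. On V the centre was 2.92 times as dense as the right arm. The central share of peaks was 62.1 to 70.2% on the other autosomes. Against both arms together, the centre was 2.00 times as dense on II and 1.64 to 2.36 times on the others. Peaks covered 2.76% of the left arm, 7.81% of the centre and 5.32% of the right arm.

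**Figure D1:**
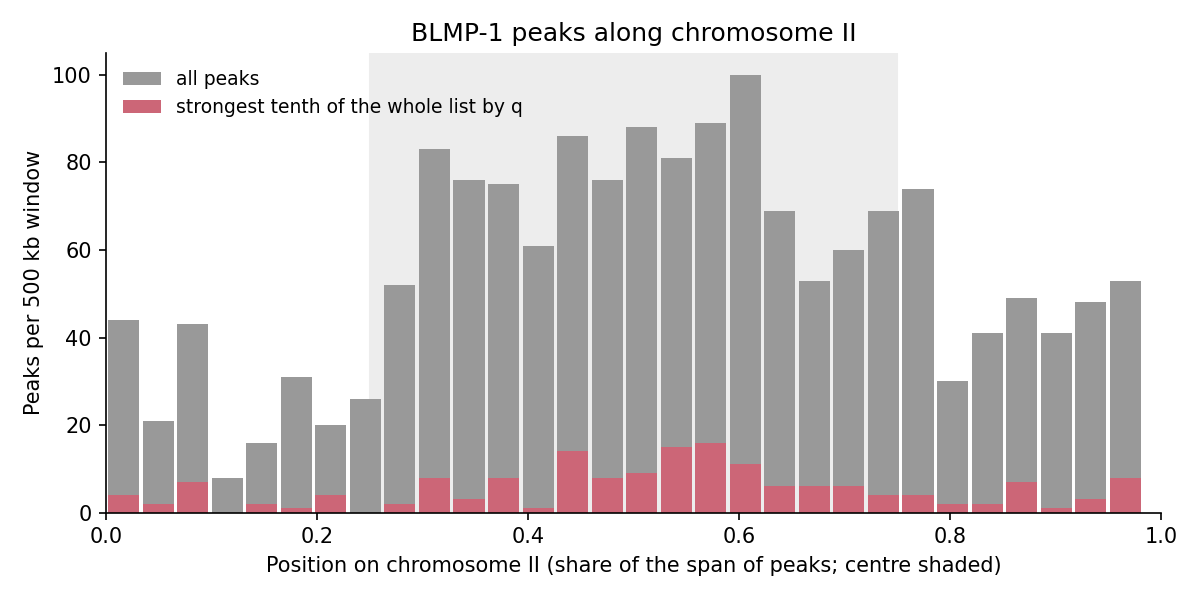
Peaks of chromosome II in 500 kb windows (grey bars) and those in the strongest 10% of the whole list by q (red bars), against position as a share of the span of peaks, with the centre shaded and the short last window left out. Windows hold 8 to 100 peaks, the low ones lie on the left arm, and the right arm runs between 30 and 74.

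The 2 arms of chromosome II differed in peak density. The right arm was 1.94 times as dense as the left. The same ratio was 1.30 on III, 0.843 on I, 0.677 on V and 0.624 on IV, so that on these 4 the denser arm had 1.19 to 1.60 times the density of the sparser. In the strongest 10% of the list by q, II was not the highest, with 1.55 times against up to 2.06 times elsewhere. In the 50% of highest ratio, it had 1.67 times against up to 1.68 times elsewhere. Among the 10 autosomal arms, the left arm of II was the second sparsest after the right arm of V, at 37.7 per Mb. The right arm of II was the second densest after the right arm of III, at 103 per Mb. The centre of II, at 148 per Mb, lay inside the range of the other centres. With 1 chromosome set against 4, these orders are descriptions of this list.

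**Figure D2:**
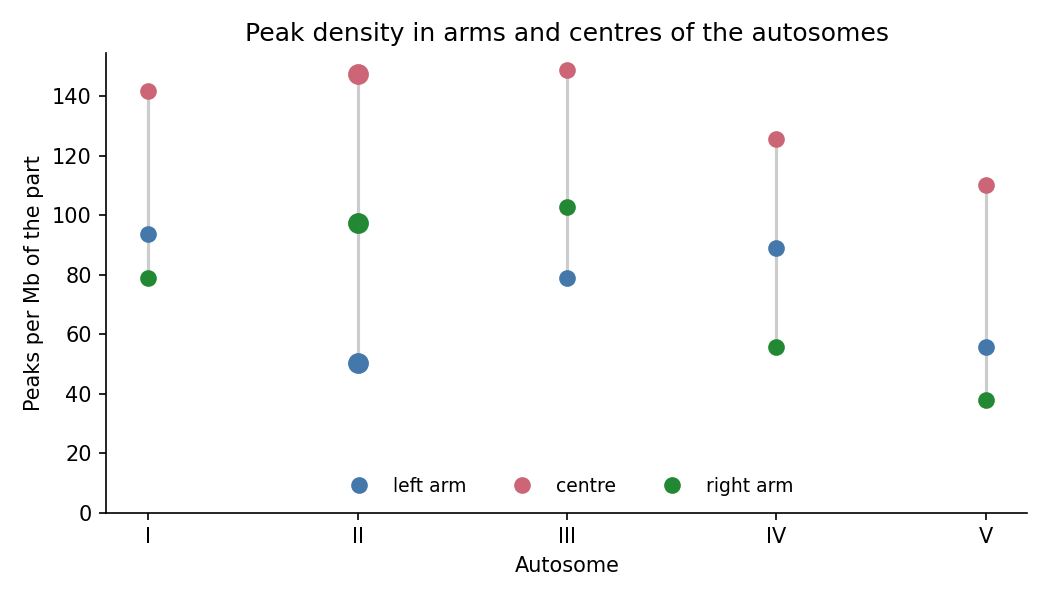
Peaks per Mb in the left arm (blue), centre (red) and right arm (green) of the 5 autosomes, with 1 point for each part and larger points for chromosome II. Chromosome II spans 50.3 to 148 per Mb, with its left arm far below its right arm at 97.5.

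Density rose in steps across the border of the left arm. The last peak below 0.25 of the span lay at chrII:3810466-3811047 (582 bp, q = 1.07e-03) and the first above it at chrII:3832411-3832835 (425 bp, q = 6.81e-10). The window of 500 kb that holds the border had 26 peaks, and the windows that follow it had 52 and 83. At the border of the right arm, the last peak inside the centre lay at chrII:11440089-11440743 (655 bp, q = 7.96e-63) and the first beyond it at chrII:11463863-11464925 (1063 bp, q = 7.79e-44). Density stayed high past this border. The window from 11501358 to 12001357 still held 74 peaks, and the drop came in the following one, with 30.

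In windows of 500 kb laid from the leftmost peak, chromosome II had a median of 53 peaks and a range from 8 to 100. The 5 densest windows all lay in the centre. They started at 9001358 with 100 peaks, 8501358 with 89, 7501358 with 88, 6501358 with 86 and 4501358 with 83. The 5 sparsest all lay on the left arm or across its border, starting at 1501358 with 8 peaks, 2001358 with 16, 3001358 with 20, 501358 with 21 and 3501358 with 26. The variance of the window counts was 11.0 times their mean, against 6.58 to 8.16 on I, III and IV and 12.2 on V. On a finer scale, 1 of 152 windows of 100 kb was empty, and it lay on the left arm. The densest window of 100 kb, from 9001358 to 9101357, held 28 peaks, and the 30 densest together held 36.0% of all peaks on the chromosome.

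Tag counts followed a slightly different order. The window from 6501358 to 7001357 held 49951 ChIP tags in its 86 peaks, or 7.24% of those in all peaks of chromosome II, and its peaks covered 11.0% of its length. The denser window from 9001358 held 40779 tags, or 5.91%. At the other end, the 8 peaks of the window from 1501358 held 1641 ChIP tags, or 0.238%. By part, the share of ChIP tags was 10.2% in the left arm, 66.9% in the centre and 22.9% in the right arm, close to the shares of peaks.

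Empty stretches made up much of the left arm. Gaps of at least 50 kb between neighbouring peaks numbered 47 on chromosome II, with 27 on the left arm, 7 in the centre and 13 on the right arm. Those of the left arm added up to 2.39 Mb, or 62.7% of its length. The share was 24.3% on the right arm and 5.16% in the centre. On the left arms of the other autosomes it was 20.6 to 38.8%, and on the right arms of IV and V it was 51.7% and 51.8%.

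The 10 longest gaps were 8 on the left arm and 2 on the right arm. The longest ran from 1504017 to 1663515 (159 kb) and the next from 1663983 to 1819706 (156 kb). Between these 2 lay a single peak of 467 bp at chrII:1663516-1663982, with 233 ChIP and 161 input tags and q = 3.29e-04, the most isolated of the chromosome. Further gaps on the left arm lay from 2204447 to 2346383, from 941095 to 1069018, from 3557021 to 3682513, from 723591 to 848469, from 1949448 to 2069892 and from 437530 to 541101, of 104 to 142 kb each. On the right arm they ran from 13305387 to 13447590 (142 kb) and from 13495074 to 13593591 (98.5 kb). In the centre the longest gap was 70.3 kb.

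Peaks far from any other were weak. On chromosome II, 32 peaks, or 1.89% against 2.83% of the list, had no neighbour within 20 kb, with 15 on the left arm, 6 in the centre and 11 on the right arm. Their median ratio was 1.60 against 2.06 for all, and 3 of the 32 had a q under 1e-20, or 9.38% against 30.8% of the chromosome. Only 1 of the 32 belonged to the strongest 10% of the list.

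The left arm was sparse, but its peaks were not uniformly weak. Of its 192 peaks, 62 had a q under 1e-20, or 32.3%, against 31.2% in the centre and 28.8% on the right arm. At the same time 36 of them, or 18.8%, had a q over 0.001, against 10.3% in the centre, 12.4% on the right arm and 10.9% of the list. On the arms of the other autosomes this share was 9.40 to 19.8%, highest on the right arm of V. The left arm of II had an accordingly low median of −log10 q, at 6.86 against 10.8 in the centre and 8.93 on the right arm. Its upper quartile of 26.9 was above their 25.6 and 23.9. The strongest 10% of the list by ratio of ChIP to input, again 10% of all peaks by definition, held 29 peaks of the left arm, or 15.1%. It held 114 of the centre, or 10.1%, and 25 of the right arm, or 6.72%. Left arms of the other autosomes had 6.19 to 14.8% of their peaks in it.

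The right arm had more peaks than the left, and a smaller share of them had high ratios. Low ratios were nearly as common on both arms. A ratio under 1.5 was found for 21.0% of peaks on the right arm, 19.3% on the left arm and 13.4% in the centre. The right arm had a median ratio of 1.91, against 2.04 on the left arm and 2.09 in the centre. A ratio of at least 4 was found for 18 peaks of the right arm, or 4.84%, against 10.9% on the left arm, 7.45% in the centre and 7.65% of the list. Input tags per kb also differed between the parts. In peaks of at least 200 bp, the median was 359 input tags per kb on the right arm, 320 in the centre and 273 on the left arm. The right arms of the other autosomes had medians of 240 to 342 input tags per kb and ratios of 1.91 to 2.08. The part of input in the difference was not tested. Tags per kb also depend on width, and the 33 peaks of at most 50 bp had a median of 60 ChIP tags.

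Peaks in the arms were wider. The median width was 461 bp on the left arm and 442 bp on the right arm, against 391 bp in the centre, or 447.5 bp on both arms together. The difference of centre minus arms was thus -56.5 bp. It was -41.0 bp on I, -25 bp on III, -19.0 bp on IV and 20.0 bp on V. Among peaks in the strongest 10% of the list by q the order turned, and on chromosome II the difference was 84.0 bp. There it lay inside the 26.0 to 117 bp of the other autosomes.

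Over the whole chromosome, 38.1% of peaks were 201 to 400 bp wide and another 38.1% were 401 to 800 bp wide. There were 33 peaks of at most 50 bp, or 1.95% against 1.82% of the list, and 30 of at least 2000 bp, or 1.77% against 1.62%. Among the listed peaks, width went with q and not with the ratio. Spearman's rho across the 1691 peaks of chromosome II was 0.57 between width and −log10 q and 0.0015 between width and ratio. Each pair of values comes from the same tags, and the peaks share their libraries. The list also ends at a q of 0.01, so a narrow peak with few tags enters it only at a high ratio. How width and ratio go together without this limit cannot be read from the list. The median ratio was 2.00 in peaks of 201 to 400 bp, 2.13 in those of 401 to 800 bp and 1.87 in those over 2000 bp.

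**Figure D3:**
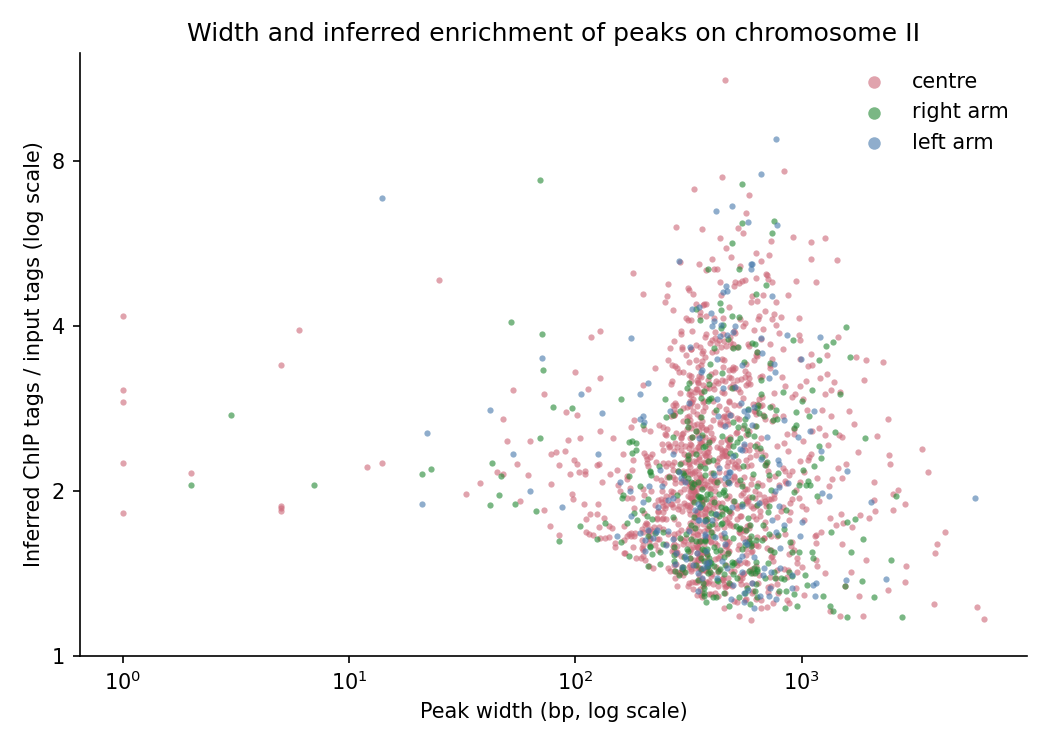
Ratio of inferred ChIP to input tags against peak width (both axes logarithmic) for the 1691 peaks of chromosome II, with 1 point for each peak and colour for the part of the chromosome. Ratios from 8.77 to 11.2 occur at widths of 458 to 768 bp, and the 10 widest peaks lie at or below 2.38.

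The 10 widest peaks differed in their ratios. At chrII:1239486-1245341 on the left arm, a peak of 5856 bp had 3327 ChIP against 1715 input tags (ratio 1.94, q = 2.37e-114), and peaks of 3392 bp at chrII:6842062-6845453 (q = 4.29e-199) and 3608 bp at chrII:9618835-9622442 (q = 3.56e-147) had ratios of 2.38 and 2.16. Peaks of 4290 bp at chrII:8741285-8745574, 3983 bp at chrII:3951224-3955206 and 3872 bp at chrII:8128215-8132086 had ratios of 1.54 to 1.68. The other 4 had ratios under 1.5. Of these, the peak at chrII:3955650-3959506 (ratio 1.25) lay 443 bp from the one at chrII:3951224-3955206, and the other 3 were neighbours.

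Those 3 and another peak formed a strip from 10541834 to 10559990 that was almost filled with called peaks. Its members were 6433, 5986, 2883 and 1647 bp wide, covered 93.3% of 18.2 kb and were separated by 222, 318 and 668 bp. Their ratios were 1.17, 1.23, 1.46 and 1.42. Together they held 10638 ChIP and 8394 input tags, which was 1.54% of the ChIP tags but 2.58% of the input tags in all peaks of chromosome II. Input stood at 495 tags per kb there, against 360 over all peaks of the chromosome, and none of the 4 was in the strongest 10% of the list. This strip was singled out after its values were seen.

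Chromosome II had its peaks in close company more often than the other autosomes of the list. Joining peaks less than 1 kb apart placed 797 of its 1691 peaks, or 47.1%, in groups of at least 2, where 41.9% of all peaks of the list were. The share was 40.2 to 41.5% on the other 4 autosomes. The median gap between neighbours was 2938.5 bp, against 3272.5 to 4013.0 bp elsewhere. Gaps from 200 to 500 bp made up 13.6% of all gaps on II and 11.2 to 11.7% elsewhere, and gaps from 500 to 1000 bp made up 14.7% and 13.0 to 13.8%. No test was made of this difference.

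**Figure D4:**
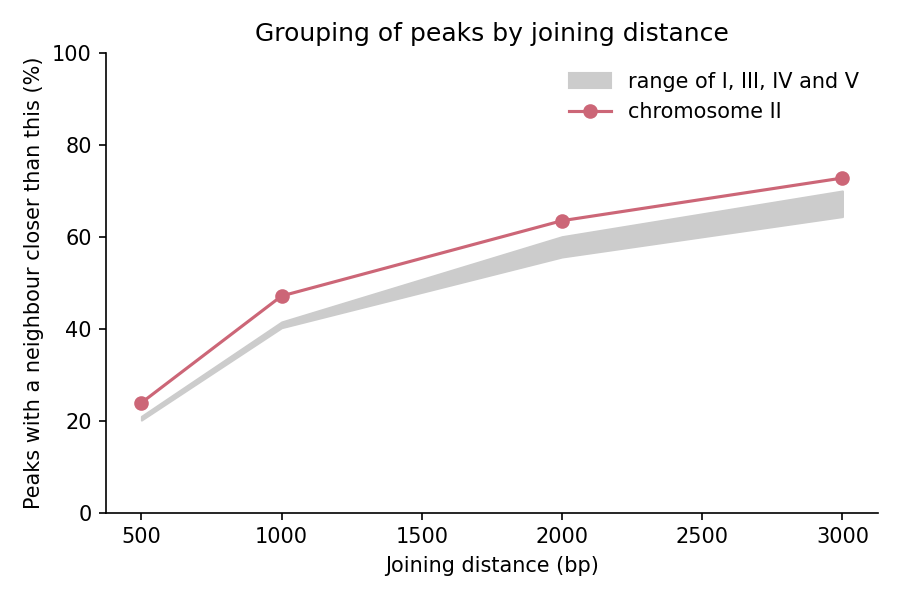
Percent of peaks with a neighbour closer than the joining distance in bp, for chromosome II (red points and line) and for the range of autosomes I, III, IV and V (grey band). Chromosome II lies above the band at all 4 distances, with 23.9, 47.1, 63.5 and 72.8%.

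The excess lay in pairs and small groups. Chromosome II had 219 pairs, against 171 to 185 on the other autosomes, and 91 groups of 3 or 4, against 74 to 83. Its 10 groups of at least 5 were inside their range of 9 to 14, and held 61 peaks, or 3.61% of the chromosome against 3.66% of the list. Grouping was closer in all parts of II than in the same parts elsewhere. In the centre 50.2% of peaks were in groups of at least 2, against 44.9 to 47.3% in the other centres. On the right arm the share was 42.2% against 24.8 to 35.1%, and on the left arm 38.5% against 25.1 to 36.9%.

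Grouped peaks on chromosome II had higher ratios and were wider than single ones, as on each of the other autosomes. The median ratio was 1.94 for the 894 peaks that stood alone, 2.15 for the 736 in groups of 2 to 4 and 2.69 for the 61 in groups of at least 5. Median widths were 380, 455.5 and 634 bp. The strongest 10% of the list held 5.93% of the peaks alone, 12.6% of those in groups of 2 to 4 and 36.1% of those in larger groups. Median input was not higher in these classes of groups, at 336, 307 and 304 tags per kb in peaks of at least 200 bp. Single groups could differ from these medians. On I, III, IV and V, between 16.2 and 33.8% of the peaks in groups of at least 5 were in the strongest 10%. Of their peaks alone, 6.01 to 7.17% were. Their median ratios were 1.93 to 2.02 for peaks alone and 2.29 to 2.51 in groups of at least 5.

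The strongest peaks of the 320 groups had a median ratio of 2.64 and a median width of 573.5 bp, and their 477 companions had 1.97 and 395 bp. Picking the strongest by q raises the former values and lowers the latter by construction. Neighbours less than 1 kb apart were weakly alike, with a Spearman's rho of 0.25 between their ratios over 477 pairs. The rho was 0.11 over 811 pairs 1 to 10 kb apart and 0.04 over 402 pairs farther apart. Neighbours share libraries, and close ones can share fragments, so these are descriptions only.

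The group with most peaks, 12 between 6820259 and 6839356, was also the longest group of at least 5 on the chromosome. Its peaks covered 78.0% of 19.1 kb and held 14299 ChIP and 6600 input tags, a ratio of 2.17. Input stood at 443 tags per kb in these peaks, against 360 over all peaks of the chromosome. Of the 12, 6 were in the strongest 10% of the list, led by a peak of 1616 bp at chrII:6828861-6830476 with 2339 ChIP and 835 input tags (q = 4.04e-161). The smallest ratios, 1.61 and 1.62, belonged to its 2 peaks of 353 and 302 bp, and the highest, 3.79, to a peak of 662 bp at chrII:6820881-6821542. A further 4 peaks followed to the right, among them the one at chrII:6842062-6845453 with 3753 ChIP tags. The first of these 4 lay 1576 bp from the group, so they are no part of it. All 16 spanned 29.5 kb and held 2.95% of the ChIP tags and 2.77% of the input tags in peaks of chromosome II.

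The other groups of at least 5 were smaller. Groups of 6 lay from 2853787 to 2862300 on the left arm, and in the centre from 8193787 to 8200213, from 8851886 to 8858139 and from 5702605 to 5707706. Groups of 5 lay from 15207029 to 15214348 on the right arm and, in the centre, from 9600326 to 9606306, 9027978 to 9033536, 6615364 to 6620582 and 9342331 to 9346751. The left-arm group had no peak in the strongest 10% and a ratio of 2.27 over its tags. The group at 8193787 had 4 of its 6 peaks in the strongest 10% and a ratio of 4.50, the highest of the 10.

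**Figure D5:**
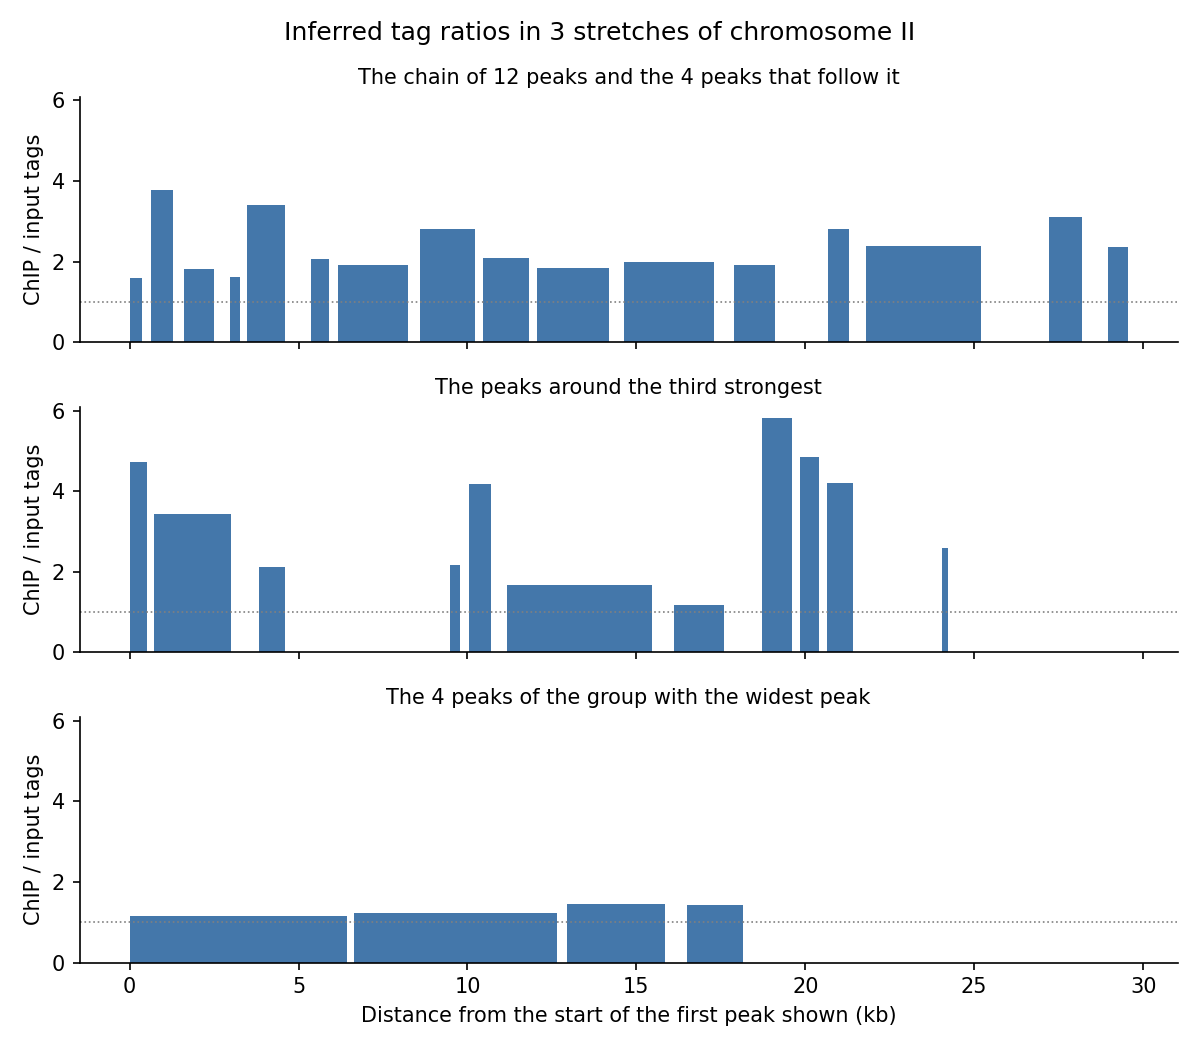
Ratio of inferred ChIP to input tags (bar height) over the width of each peak, against distance in kb from the first peak shown, in 3 stretches of chromosome II, with a dotted line at a ratio of 1. The chain of 12 and its 4 followers run from 1.61 to 3.79, the stretch around the third strongest peak from 1.18 to 5.81, and the strip with the widest peak from 1.17 to 1.46.

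The strongest peaks of chromosome II lay in all 3 of its parts. Of the 25 peaks of lowest q, 18 were central, 2 on the left arm and 5 on the right arm, against 66.6, 11.4 and 22.0% of all its peaks. Their widths ran from 545 to 3608 bp with a median of 1161 bp, and their ratios from 2.16 to 8.77 with a median of 4.81. In groups of at least 2 there were 17 of the 25, against 47.1% of all peaks of the chromosome and 41.9% of the list. Wide peaks were grouped more often in any case. Of the peaks of chromosome II, 63.0% of those 801 to 2000 bp wide and 86.7% of the wider ones were in such groups. The window of 500 kb from 6501358 held 5 of the 25 and that from 8501358 held 3.

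The leading peak, at chrII:6711877-6713316, had 2228 ChIP and 423 input tags (ratio 5.27, q = 6.77e-292). The second, at chrII:6713539-6714378, began 222 bp after it and had 1519 ChIP and 198 input tags (ratio 7.67, q = 1.75e-249). The pair formed a group of their own, with the stronger ratio in the narrower peak. The third, at chrII:8748813-8749729, had 1742 ChIP and 300 input tags (ratio 5.81, q = 5.93e-244).

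Around the third peak, 11 peaks lay within 24.2 kb, and 7 of them were in the strongest 10% of the list. Besides it they included chrII:8730816-8733114 (2111 against 614 tags, q = 1.42e-188) and chrII:8750763-8751521 (1506 against 358 tags, q = 5.94e-165). The wide peak at chrII:8741285-8745574 lay between them with a ratio of 1.68. Beside it the 1482 bp from 8746221 to 8747702 had a ratio of 1.18 and a q of 7.07e-03, rank 9989 of the list. High and low ratios thus stood within 2 kb of each other.

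Further central peaks of the 25 lay at chrII:6978753-6980016 (ratio 5.78) and at chrII:9343752-9345498 (ratio 3.51). On the left arm, the 2 members of the 25 were narrower than their median and had high ratios. They lay at chrII:3030095-3030862, with 930 ChIP and 106 input tags (ratio 8.77), and at chrII:3241728-3242391, with 970 and 128 tags (ratio 7.58). Neither was in a group, but their nearest neighbours lay 1363 and 1063 bp away, just past the joining distance of 1 kb. On the right arm the 5 lay at 11880191 to 11881379, 13167242 to 13167993, 14702983 to 14704562, 14672519 to 14674151 and 13053302 to 13053846, with ratios from 3.47 to 7.26. The remaining members were central and started at 4821520, 7621215, 9031385, 4733860, 5898832, 10598696, 11307055 and 8193787.

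By ratio the order was different. The highest ratio of chromosome II, 11.2, belonged to a peak of 458 bp at chrII:7242621-7243078 with 562 ChIP and 50 input tags (q = 4.05e-109), outside the 25 of lowest q. Of the 25, 17 were in the strongest 10% of the list by ratio. The lowest ratio, 1.16, belonged to a peak of 595 bp at chrII:9282580-9283174 with 814 ChIP and 700 input tags (q = 3.24e-03). Its 1176 input tags per kb compare with a median of 322 in peaks of at least 200 bp on the chromosome. Across the 1526 such peaks, rho between input per kb and ratio was -0.64, and input is the denominator of the ratio. These peaks by ratio were singled out after their values were seen.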

How the data were processed

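The deposited file was 1 combined list of peaks for 2 ChIP and 2 input libraries. Per the file headers, peaks were called with PeakSeq on WormBase WS180. Each carries a q-value, deposited by the authors as its score. Aligner, filters, depth, and whether reads were pooled are not given in the sources used here.

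Peaks were placed by midpoints on the span between the outermost peaks, in arms, centre and 500 kb windows. Groups joined peaks less than 1 kb apart. Tags were inferred from q (16906 candidates, ranks 12 above the order in the list). For 1 peak the rank had to be 1 higher still. With 1 candidate more or fewer, 0 peaks matched. The 2 unmatched peaks, on other chromosomes, have no tag values. Steps were tested on simulated data.

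Named were the 25 peaks of lowest q, the 10 widest, the 5 densest and sparsest windows, the 10 longest gaps and the 10 groups with most peaks. Members, parts and measures were chosen with earlier results of these data known. No p-value was computed, since peaks of 1 list are not replicates. Alternatives restricted the list by q, width or ratio, joined peaks, or moved borders and distances. The work used matplotlib 3.10.9, pandas 2.3.3, scipy 1.17.1 and numpy 2.4.6 under Python 3.11.15.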

Additional observations from a re-analysis of the deposited data

How the results depend on the processing

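Of 59 recomputed values, 31 moved by less than their counting interval (counts by less than 1.5 times), 27 by more, and 1 reversed. Part of the 27 moved by construction, since another centre, joining distance, gap limit or cut of the list redefines the quantity. The tally is therefore no score of robustness. The difference in median width, centre minus arms, was -56.5 bp, but 84.0 bp in the 10% of the list with lowest q. In that 10% it was 26.0 to 117 bp on the other autosomes. Lists below are the 50% or 10% of lowest q, the 50% of highest ratio, and peaks from 200 bp up or over 50 bp. The density of II relative to the other 4 autosomes, 1.11, was 1.06 to 1.12 under all 7 alternatives. The ratio of right to left arm, 1.94, fell to 1.55 in the 10% and to 1.46 with the middle 33.3% as centre. Taken as denser over sparser arm, it stayed above the other autosomes from 200 bp up, over 50 bp and in the 50% of lowest q, but not in the 10% of lowest q (1.55 against up to 2.06) or the 50% of highest ratio (1.67 against up to 1.68). The central share, 66.6%, was 70.1% in the 50% and 69.6% in the 10% of lowest q, 70.5% in the 50% of highest ratio, 64.3% after joining peaks and 48.0% in the middle 33.3%. Median width, 411 bp, was 523 and 768 bp in the 50% and 10% of lowest q, 444 bp from 200 bp up and 475.5 bp after joining. The median gap, 2938.5 bp, was 5556, 32796 and 3438 bp in the 50%, the 10% and the peaks from 200 bp up. Groups of at least 5, 10 in all, numbered 3 when joined under 500 bp, 45 under 2 kb, 4 in the 50% and 0 in the 10% of lowest q. The share in groups, 47.1%, was 23.9% under 500 bp and 63.5% under 2 kb. In settings chosen after the data were seen it was 37.5% in the 50% and 21.4% in the 10% of lowest q, 44.2% from 200 bp up and 36.5% in the 50% of highest ratio, above the other 4 autosomes in each. Gaps of at least 50 kb, 47 in all, numbered 73 in the 10%, and there were 95 of at least 30 kb and 9 of at least 100 kb. Shorter lists have fewer peaks by construction. No paired analysis was possible because libraries have no values of their own here, and leaving out a replicate was likewise not run. Depth is unknown, which limits what the list shows of weak sites.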

Other observations

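The 33 peaks of at most 50 bp on chromosome II, of which 5 were listed with a single base, had a median of 60 ChIP tags. Of the 33, 19 lay in groups of at least 2, or 57.6% against 47.1% of the chromosome, and their median ratio was 2.19. One of them, 14 bp wide at chrII:1183071-1183084 with 41 ChIP and 6 input tags, had 1 of the 10 highest ratios of the chromosome, 6.83, on the fewest tags.

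The outermost peaks of the chromosome were weak. The leftmost began at position 1358 and ran to 1703, with 232 ChIP and 151 input tags (ratio 1.54, q = 4.39e-05). The rightmost lay from 15267313 to 15267510, with 105 and 57 tags (ratio 1.84, q = 2.01e-04). The leftmost peaks of the other autosomes began at positions 7780 to 49806. The ends of the span of chromosome II were therefore set by weak peaks. Their nearest neighbours lay 10740 bp from the leftmost and 542 bp from the rightmost, little beside a span of 15.27 Mb. With the span taken from position 1, the central share stayed at 66.6% and the ratio of right to left arm at 1.94.

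Tags were spread over many peaks. The 168 peaks of chromosome II in the strongest 10% of the list held 26.0% of the ChIP tags in its peaks on 19.6% of their length.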
